A study of Mus musculus with 6 samples.

Results

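The unfolded protein and amino acid stress genes are 34 mouse genes named one by one for this description: chaperones and degradation factors of the endoplasmic reticulum (ER), the sensors of protein and amino acid stress with their transcription factors, and target genes of the factor ATF4. Their rows were found by Ensembl gene identifier among the 41128 genes of the table, each symbol matched 1 row, and the rule uses no measured value. By role they fall into 18 ER folding and degradation genes, 6 sensors and transcription factors, and 10 ATF4 target genes. The study sequenced poly(A) RNA of long-term repopulating hematopoietic stem cells, a small class of marrow cells able to rebuild the blood after transplantation. C57BL mice had received DMSO, the control, or YH250, which the submitters call a p300/catenin antagonist, at 2 mg/kg under the skin. In both groups the marrow was collected after 16 h and sorted by flow cytometry as Lin-Sca1+c-Kit+CD41-CD48-CD150+, and each group has 3 libraries, numbered 1 to 3 in the labels. Age and sex of the mice, the number of mice behind a library and the meaning of the number are not given in the sources used here, so p-values measure only the spread between these libraries.

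When unfolded proteins collect in the ER, the membrane sensors IRE1 (gene Ern1), PERK (Eif2ak3) and ATF6 are set free from the chaperone BiP (Hspa5). IRE1 splices the Xbp1 transcript and ATF6 is cut by proteases, and the resulting factors switch on chaperones and genes of ER-associated degradation. PERK and GCN2 (Eif2ak4), the sensor of uncharged transfer RNA, phosphorylate the initiation factor eIF2, which slows translation in general and raises that of ATF4. ATF4 switches on amino acid synthesis and transport genes and regulators such as CHOP (Ddit3). Blood stem cells are known for a low rate of protein synthesis, and plasma cells, which secrete antibody, for a large ER that depends on XBP1. Splicing of Xbp1, cleavage of ATF6, phosphorylation of eIF2 and translation of Atf4 are not seen in a level of RNA per gene.

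Levels are given as RPM, that is reads per gene after each library was brought to the same total, and the values of a gene follow the order of the library numbers. One read was worth 0.0321 to 0.0455 RPM, so a gene at 1 RPM rested on 22.0 to 31.2 reads. The libraries did not look alike in their cell type markers. A list of 9 stem cell markers summed to 636 to 1288 RPM and was lowest in DMSO 3 and YH250 3, although Ly6a, which encodes the sort marker Sca1, was highest there at 241 and 319 RPM. Slamf1, which encodes the sort marker CD150, had 35.5 RPM in DMSO 1, 31.5 RPM in YH250 1 and only 0.515 to 4.69 RPM in the other 4 libraries. Cd48, whose protein the sort excluded, had 258 RPM in DMSO 3, 252 RPM in YH250 3 and 10.2 to 66.9 RPM elsewhere. The 10 plasma cell markers together measured 184, 333 and 31534 RPM in DMSO libraries 1, 2 and 3, and 842, 6541 and 53886 RPM in YH250 libraries 1, 2 and 3. In bulk RNA, more cells of a type and more RNA per cell cannot be told apart.

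All 34 genes were detected, and all passed the minimum mean of 1 RPM over the 6 libraries, as 13597 genes of the table did. Per kilobase of merged exons, the ER chaperones stood at the top: Hspa5 had a mean of 132 RPM per kilobase over the 6 libraries, Hsp90b1 (GRP94, the ER form of HSP90) 124, Pdia3 (a disulfide isomerase of glycoproteins) 120 and Canx (calnexin, a membrane lectin chaperone) 104. Phgdh, the first enzyme of serine synthesis, came next at 98.5 RPM per kilobase, and Xbp1 stood at 97.2. Atf4, at 74.0 RPM per kilobase, was the second of the 6 sensors and factors by this mean. The 4 sensors Atf6, Eif2ak4, Eif2ak3 and Ern1 lay at 3.77, 2.83, 2.71 and 2.36. These means include DMSO 3 and YH250 3, which were high for part of these genes. Hsp90b1 had 642 and 667 RPM there against 177 to 230 RPM elsewhere, and Xbp1 312 and 464 RPM against 134 to 170 RPM. Phgdh had 134 and 189 RPM there against 171 to 249 RPM elsewhere. The order of Hsp90b1 and Canx above Phgdh, and of Xbp1 above Atf4, rested on these libraries. The lowest of the 34 was Slc7a11, the cystine carrier, at 0.415 RPM per kilobase. Atf5, Chac1 and Sesn2 lay between 1.11 and 1.27 RPM per kilobase. Their levels were 0 to 11.3 RPM in single libraries.

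**Figure D1:**
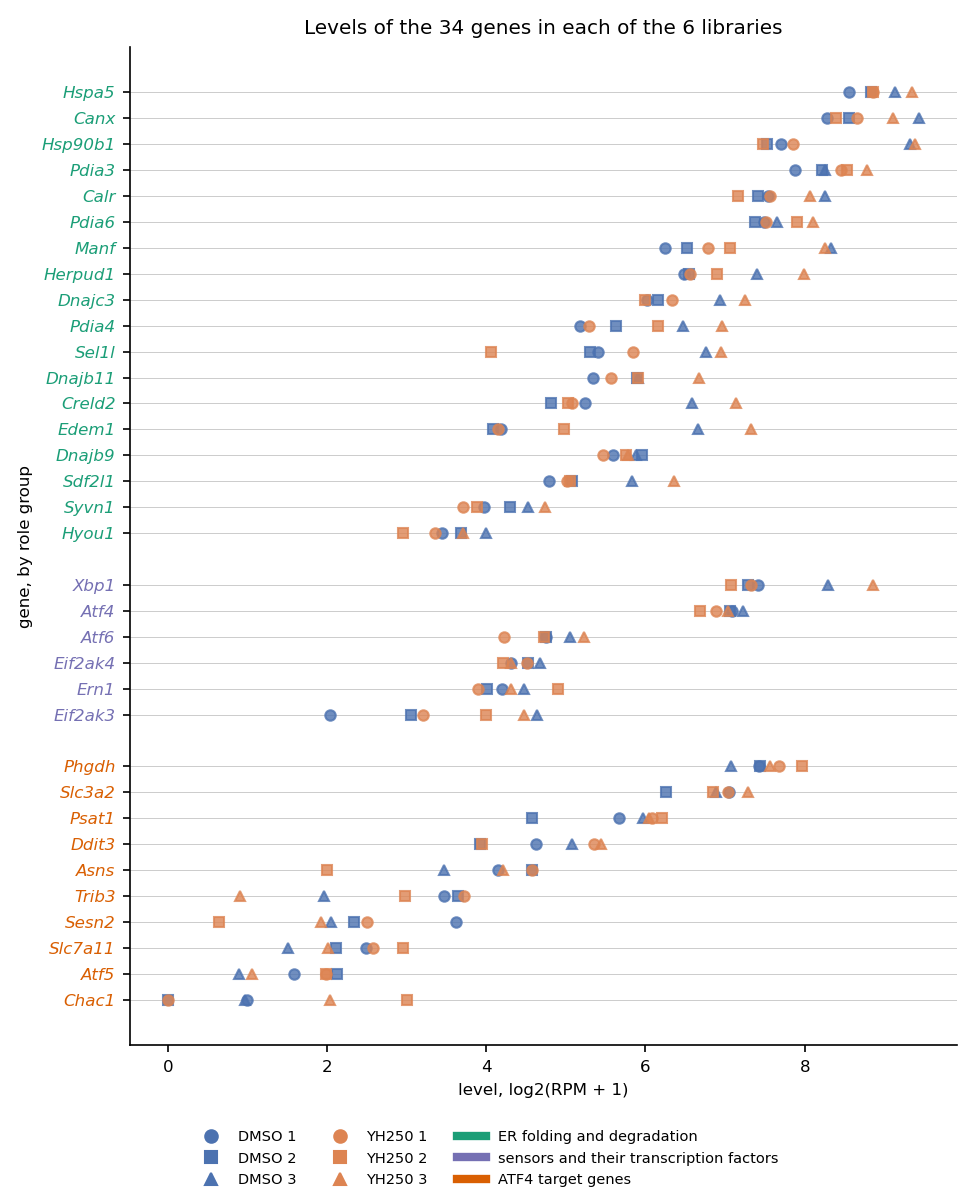
Level of each of the 34 genes as log2(RPM + 1) on the horizontal axis, with 1 point per library (colour for treatment, shape for number) and the genes grouped by role on the vertical axis, ordered by mean RPM. The triangles of DMSO 3 and YH250 3 lie to the right of the other points in 15 of the 18 ER genes and to the left in Trib3, Slc7a11 and Atf5.

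The promoters show which of these genes carry the sequences that the stress factors are known to bind. RefSeq starts on GRCm38.p6 were matched for 31 of the 34 genes, all but Atf6, Manf and Hyou1, and the 250 bases before and 50 after the start were searched on both strands for exact matches. The ER stress response element (ERSE: CCAAT, any 9 bases, then CCACG) is bound by ATF6 and XBP1 together with the CCAAT-binding factor NF-Y. It was found in 8 of the 16 ER genes with a promoter (Hspa5, Hsp90b1, Calr, Canx, Pdia6, Dnajc3, Creld2 and Syvn1). It was in 0 of 5 sensors and factors, in 0 of 10 ATF4 targets, and in 0.137% of all 27025 genes with a promoter. The related ERSE-II (ATTGG, any base, then CCACG) was found in Herpud1 and Dnajb11 and in 0.0444% of all genes with a promoter. The UPRE, TGACGTGG, was found in none of the 31 genes and in 0.714% of all genes with a promoter. ATF4 binds the C/EBP-ATF response element (CARE), TGATGNAA, with a C/EBP partner. The CARE was found in 4 of the 10 ATF4 targets (Trib3, Chac1, Asns and Slc7a11), in Herpud1, and in 4.51% of all genes with a promoter. A match describes the letters and is not a site shown to be bound, and no match says only that these letters are not in this window.

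The 8 ERSE genes are shown by the element itself, read in the direction of CCAAT to CCACG, with the fixed letters in capitals and the 9 free bases in lower case. Hsp90b1 holds it on both strands, so 9 elements are listed.
Hspa5 ERSE, 65 bases before the start: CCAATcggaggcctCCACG
Hsp90b1 ERSE, 212 bases before the start: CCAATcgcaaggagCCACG
Hsp90b1 ERSE, opposite strand, 107 bases before the start: CCAATcgtgcctcaCCACG
Calr ERSE, opposite strand, 162 bases before the start: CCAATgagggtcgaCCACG
Canx ERSE, 145 bases before the start: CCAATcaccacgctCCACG
Pdia6 ERSE, 98 bases before the start: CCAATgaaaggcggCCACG
Dnajc3 ERSE, 105 bases before the start: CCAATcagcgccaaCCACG
Creld2 ERSE, opposite strand, 126 bases before the start: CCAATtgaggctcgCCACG
Syvn1 ERSE, 44 bases before the start: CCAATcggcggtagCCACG

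Whole upstream windows are printed for 4 genes: Hspa5 as the defining target of the response, Hsp90b1 for its 2 elements, Herpud1 as the gene with both an ERSE-II and a CARE, and Asns as an amino acid gene with a CARE close to the start. Each is 250 bases long, runs 5′ to 3′ on the strand of the gene, ends at the base before the RefSeq start, and has the matched elements in capitals. In Herpud1 the first run of capitals is the CARE, read on the opposite strand, and the second is the ERSE-II. In Hsp90b1 the first ERSE is on the strand of the gene and the second on the other.
Hspa5 (GRCm38.p6 chr2:34771840-34772089, plus strand): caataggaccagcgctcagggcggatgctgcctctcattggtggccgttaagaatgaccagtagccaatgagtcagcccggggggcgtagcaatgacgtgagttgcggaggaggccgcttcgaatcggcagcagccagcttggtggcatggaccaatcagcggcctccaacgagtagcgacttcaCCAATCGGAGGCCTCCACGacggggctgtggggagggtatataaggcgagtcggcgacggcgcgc
Hsp90b1 (GRCm38.p6 chr10:86705445-86705694, minus strand): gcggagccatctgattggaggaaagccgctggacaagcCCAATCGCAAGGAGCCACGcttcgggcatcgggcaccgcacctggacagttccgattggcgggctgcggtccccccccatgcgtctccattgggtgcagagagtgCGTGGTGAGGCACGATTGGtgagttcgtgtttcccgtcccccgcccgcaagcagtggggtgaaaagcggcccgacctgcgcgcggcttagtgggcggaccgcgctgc
Herpud1 (GRCm38.p6 chr8:94386179-94386428, plus strand): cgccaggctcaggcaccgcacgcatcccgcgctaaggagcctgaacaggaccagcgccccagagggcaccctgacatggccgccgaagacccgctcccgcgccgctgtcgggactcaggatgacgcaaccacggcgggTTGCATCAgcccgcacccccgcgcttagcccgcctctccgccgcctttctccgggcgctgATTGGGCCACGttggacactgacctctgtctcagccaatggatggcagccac
Asns (GRCm38.p6 chr6:7693210-7693459, minus strand): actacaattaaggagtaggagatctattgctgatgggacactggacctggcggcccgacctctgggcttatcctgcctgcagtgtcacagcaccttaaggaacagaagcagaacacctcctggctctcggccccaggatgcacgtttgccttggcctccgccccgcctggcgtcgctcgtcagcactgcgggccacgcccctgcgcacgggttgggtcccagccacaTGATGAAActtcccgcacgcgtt

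YH250 was compared with DMSO to see whether 16 h of treatment moved the stress genes. None of the 34 passed limma's test at an adjusted p under 0.05, and over all 13597 tested genes 0% passed. Adjusted p was 0.999 for each of the 34. At an unadjusted p under 0.05 the count was 0 of 34, where 1.7% of all genes lay under that line. With the replicate number as a block (paired fit), 3 of 34 reached that line, all higher with YH250, as 7.44% of all genes did. They were Pdia3 (unadjusted p = 0.0115 by limma), Phgdh (0.021) and Psat1 (0.0323), and their adjusted p from the blocked limma fit was 0.66 or above.

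Without the replicate block, the differences of the ER genes were small beside the spread of the libraries, with a median standard error (SE) of 0.37. With the block the median SE was 0.18, and 1 of the 18 was higher at an unadjusted p under 0.05 by limma. At that line 4.46% of all genes were higher and 2.99% lower. Single-gene SE values of YH250 minus DMSO, here and below, are those of the fit without the block. The 18 had a median log2 difference of 0.19, from -0.37 to 0.51, with 12 of 18 above 0, and the median over all genes was 0.02. The median moved with single libraries: it was -0.20 without YH250 3 and 0.43 without DMSO 3, and 0.10 without both libraries numbered 3. Hspa5 measured 374, 455 and 561 RPM in DMSO libraries 1, 2 and 3, and 463, 462 and 648 RPM in YH250 libraries 1, 2 and 3. Each YH250 library was above the DMSO library of its number, but the groups overlapped and that order was lost under each of 3 other scalings. The log2 difference was 0.18 (SE 0.24), and 0.02 without YH250 3. BiP, its product, is the chaperone whose RNA is most often read as a gauge of ER stress.

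Pdia3 came closest to a difference. It measured 234, 296 and 305 RPM in the DMSO libraries and 350, 368 and 438 RPM in the YH250 libraries, so every YH250 library lay above every DMSO library. Its log2 difference was 0.47 (SE 0.21, unadjusted p = 0.0533). Exons of Pdia3 overlap those of Catsper2 on the other strand, and strand use in counting is not stated. Pdia6, another disulfide isomerase, measured 179, 165 and 201 RPM in the DMSO libraries and 181, 238 and 273 RPM in the YH250 libraries. Its groups overlapped, with a log2 difference of 0.32 (SE 0.23), or 0.19 without YH250 3 and 0.49 without YH250 1. Dnajb11, a co-chaperone of BiP, measured 39.6, 58.5 and 59.1 RPM in the DMSO libraries and 46.5, 59.0 and 101 RPM in the YH250 libraries. YH250 3 alone was far above the rest, and the log2 difference was 0.33 (SE 0.32), or 0.02 without it. Hyou1, an ER relative of HSP70 that exchanges the nucleotide of BiP, measured 9.86, 11.8 and 15.0 RPM in the DMSO libraries and 9.23, 6.72 and 12.1 RPM in the YH250 libraries. It was the only ER gene beside Dnajb9 that was lower with YH250 at all 3 numbers, at a log2 difference of -0.37 (SE 0.38), or -0.17 without YH250 2 and -0.56 without YH250 3.

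The sensors and factors had a median log2 difference of -0.02, with 3 of 6 above 0, and from -0.24 (without YH250 3) to 0.21 (without YH250 1) with 1 library left out. Within each number the median was -0.15, -0.12 and -0.17 for numbers 1, 2 and 3, where all genes had 0.06, 0.06 and -0.06. Atf4 measured 135, 133 and 149 RPM in the DMSO libraries and 117, 102 and 130 RPM in the YH250 libraries. All 3 YH250 libraries were below all 3 DMSO libraries, and the log2 difference was -0.26 (SE 0.21, unadjusted p = 0.241), or -0.17 without YH250 2. Xbp1 measured 170, 155 and 312 RPM in the DMSO libraries and 159, 134 and 464 RPM in the YH250 libraries. It was lower with YH250 at numbers 1 and 2 and higher at number 3, and its log2 difference of 0.09 (SE 0.47) became -0.15 without both libraries numbered 3. Without DMSO 1, DMSO 2 or YH250 3 alone it was -0.04, -0.10 and -0.46.

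Of the sensors, Eif2ak3 (PERK) measured 3.11, 7.28 and 24.0 RPM in the DMSO libraries and 8.21, 14.9 and 21.2 RPM in the YH250 libraries. The DMSO libraries spanned the range of the YH250 libraries on both sides, with a log2 difference of 0.64 (SE 0.65). It was 0.04 without DMSO 1, 0.35 without YH250 3, 0.99 without YH250 1 and 1.34 without DMSO 3. Exons of Eif2ak3 overlap an unnamed gene model on the other strand. Ern1 (IRE1) measured 17.3, 15.1 and 21.3 RPM in the DMSO libraries and 13.9, 28.9 and 18.8 RPM in the YH250 libraries. YH250 2 alone was high, and the log2 difference of 0.14 (SE 0.34) turned to -0.12 without it. Eif2ak4 (GCN2) measured 18.8, 22.0 and 24.5 RPM in the DMSO libraries and 21.9, 17.5 and 18.8 RPM in the YH250 libraries, an overlapping pair of groups with a log2 difference of -0.15 (SE 0.28), from -0.25 without DMSO 1 to -0.07 without DMSO 3. Atf6 measured 26.0, 26.0 and 32.3 RPM in the DMSO libraries and 17.6, 25.5 and 36.6 RPM in the YH250 libraries, again overlapping, with a log2 difference of -0.13 (SE 0.32).

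The ATF4 targets had a median log2 difference of 0.35, with 7 of 10 above 0, and none passed the test. Within numbers 1, 2 and 3 the median was 0.25, 0.28 and 0.38. Among the ATF4 targets, both genes whose groups did not overlap encode enzymes of serine synthesis. Phgdh measured 171, 173 and 134 RPM in the DMSO libraries and 203, 249 and 189 RPM in the YH250 libraries, a log2 difference of 0.42 (SE 0.22, unadjusted p = 0.0893). Psat1, the next enzyme of the same path, measured 49.7, 22.9 and 61.7 RPM in the DMSO libraries and 66.8, 72.7 and 65.0 RPM in the YH250 libraries. Its YH250 libraries were close together while DMSO 2 was far below the rest, and the log2 difference was 0.71 (SE 0.35, unadjusted p = 0.0758). Without DMSO 2 it was 0.29.

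The groups overlapped in Ddit3, Asns and Trib3. Ddit3 (CHOP, a factor that promotes cell death under lasting stress) measured 23.6, 14.1 and 32.7 RPM in the DMSO libraries and 40.0, 14.4 and 42.4 RPM in the YH250 libraries. Both libraries numbered 2 were low, and the log2 difference was 0.38 (SE 0.46). With 1 library left out it ran from 0.07 (without DMSO 2) to 0.86 (without YH250 2). Ddit3 shares exon sequence with Mars, a gene on the other strand, and with a second Ddit3 gene model not analysed here, so its level is uncertain. Asns (asparagine synthetase) measured 16.7, 22.8 and 10.1 RPM in the DMSO libraries and 22.8, 3.00 and 17.5 RPM in the YH250 libraries. YH250 2 alone was low, and the log2 difference of -0.47 (SE 0.65) became 0.33 without it and -0.96 without YH250 1. Trib3, a pseudokinase that restrains ATF4 signalling, measured 10.1, 11.5 and 2.91 RPM in the DMSO libraries and 12.2, 6.92 and 0.876 RPM in the YH250 libraries. The libraries numbered 3 were the lowest of each group, and the log2 difference of -0.49 (SE 0.77) became 0.33 without YH250 3 and -1.08 without YH250 1.

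The widest differences of this group, with wide errors, were in a pair of weakly expressed targets. Sesn2, a leucine-sensing inhibitor of mTORC1, measured 11.3, 4.05 and 3.14 RPM in the DMSO libraries and 4.65, 0.560 and 2.79 RPM in the YH250 libraries. It was lower with YH250 at all 3 numbers, but the groups overlapped, with a log2 difference of -0.98 (SE 0.64), or -0.51 without DMSO 1 and -0.46 without YH250 2. Chac1, which breaks down glutathione, measured 0.998, 0 and 0.956 RPM in the DMSO libraries and 0, 7.0 and 3.09 RPM in the YH250 libraries. Its 2 zeros allow up to 0.110 RPM in DMSO 2 and 0.0962 RPM in YH250 1 (3 reads, counting error only), and the log2 difference was 1.02 (SE 0.77), or 0.36 without YH250 2, 1.86 without YH250 1 and 0.03 without both libraries numbered 2. Atf5, a relative of ATF4, measured 2.00, 3.38 and 0.865 RPM in the DMSO libraries and 2.98, 2.96 and 1.08 RPM in the YH250 libraries. Its groups overlapped, with a log2 difference of 0.14 (SE 0.53), and its exons overlap those of Nup62 and Il4i1. Slc7a11 and Slc3a2, which together form the cystine carrier, had log2 differences of 0.48 and 0.33 with overlapping groups.

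**Figure D2:**
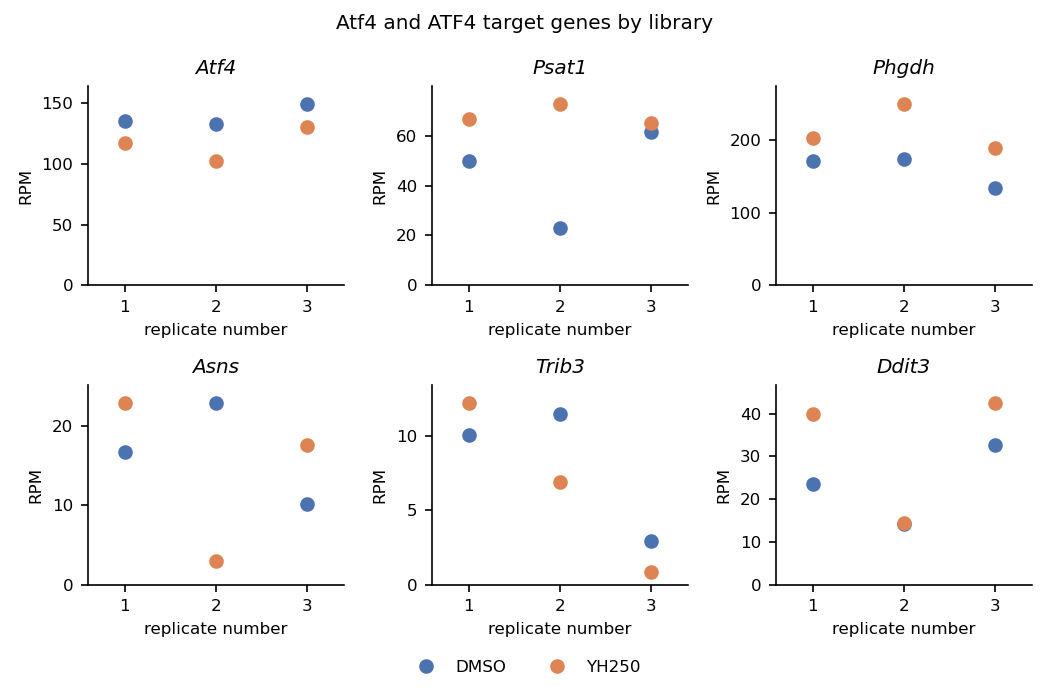
RPM on the vertical axis (from 0) against replicate number on the horizontal axis for Atf4 and 5 of its target genes, 1 point per library, DMSO in blue and YH250 in orange. The YH250 points lie below all DMSO points for Atf4 and above all of them for Psat1 and Phgdh, while those of Asns, Trib3 and Ddit3 overlap with the DMSO points.

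Such separations were few among the 34 genes, and with 3 libraries per group many genes of the table show them. Every YH250 library lay above every DMSO library in 3 of 34 (Pdia3, Psat1 and Phgdh), as in 3.79% of all genes, and below in 1 of 34 (Atf4), as in 3.68%. With each library rescaled to the same sum over genes, Pdia3 alone stayed separated upward, Atf4 stayed separated downward, and Hyou1, which overlapped as deposited, was separated downward too. YH250 was higher at all 3 numbers in 10 of 34, where the table as a whole had 16.1%, and lower at all 3 in 4 of 34, where it had 15%. The 10 were Hspa5, Pdia3, Pdia4, Pdia6, Dnajb11, Herpud1, Ddit3, Psat1, Phgdh and Slc7a11, and the 4 were Dnajb9, Hyou1, Atf4 and Sesn2. These counts depend on the scaling. They were 6 and 5 with quantile normalization and 7 and 5 with median-of-ratios scaling. With the same sum over genes they were 3 (Pdia3, Psat1 and Phgdh) and 5, Calr being the fifth. Shares over all genes were counted as deposited only, so counts under other scalings cannot be set beside them.

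The differences that passed the test lay between replicate numbers, and most of them were in ER genes. Both libraries numbered 3 lay above the other 4 in 18 of 34 genes, 15 of them ER genes, where 19.9% of all genes had that order. The 3 others were Xbp1, Atf6 and Eif2ak3. Both lay below in 3 of 34 (Slc7a11, Trib3 and Atf5), where 14.3% of all genes did. These counts also depend on the scaling. The 18 became 17 with median-of-ratios scaling, 16 with quantile normalization and 13 with the same sum over genes, and the 3 became 3, 4 and 4. Hspa5, Dnajb11, Syvn1 and Hyou1 were among those that lost the order with the same sum over genes. Shares over all genes were not counted under these scalings. The 18 ER genes together measured 1988, 2210 and 3918 RPM in DMSO libraries 1, 2 and 3, and 2381, 2350 and 4369 RPM in YH250 libraries 1, 2 and 3. Both libraries numbered 3 were thus above the other 4 by more than those 4 differed among themselves, in either treatment.

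Contrasts between numbers were fitted with limma on 2 libraries of each number, adjusting for treatment. They were chosen since earlier results of these data had shown the libraries to differ in this way. Their p-values thus describe these libraries and are no independent test. Each number holds 1 library of each treatment, so the error measures only how the treatment difference varies between numbers. In number 3 against number 1, 11 of 34 genes were higher at an adjusted p under 0.05, where 5.6% of all genes were, and 1 was lower, where 2.96% were. The 11 were 9 ER genes with Xbp1 and Eif2ak3, and the 1 was Trib3. All 18 ER genes had a positive difference, with a median log2 difference of 0.87 against 0.04 for all genes, and this held within DMSO alone (18 of 18, median 0.91) and within YH250 alone (18 of 18, median 1.07). In number 3 against number 2, 11 of 34 were higher (3.67% of all genes) and 0 lower (2.64% of all genes), with 1 lower at an unadjusted p under 0.05 (11% of all genes). Between numbers 1 and 2, 0 of the 34 passed, where 0.177% of all genes were higher and 0.0221% lower in number 2, and 5 of 34 had an unadjusted p under 0.05, a share near the 14.3% of all genes. Single libraries decided part of these counts. For number 3 against number 1, 7 of the 34 passed without DMSO 1 (457 genes in all) or without DMSO 3 (417 in all). For number 3 against number 2, 7 passed without DMSO 3 (250 in all). For number 2 against number 1, 5 passed without DMSO 2 and 1 without YH250 2, but 1764 and 296 genes passed in all.

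**Figure D3:**
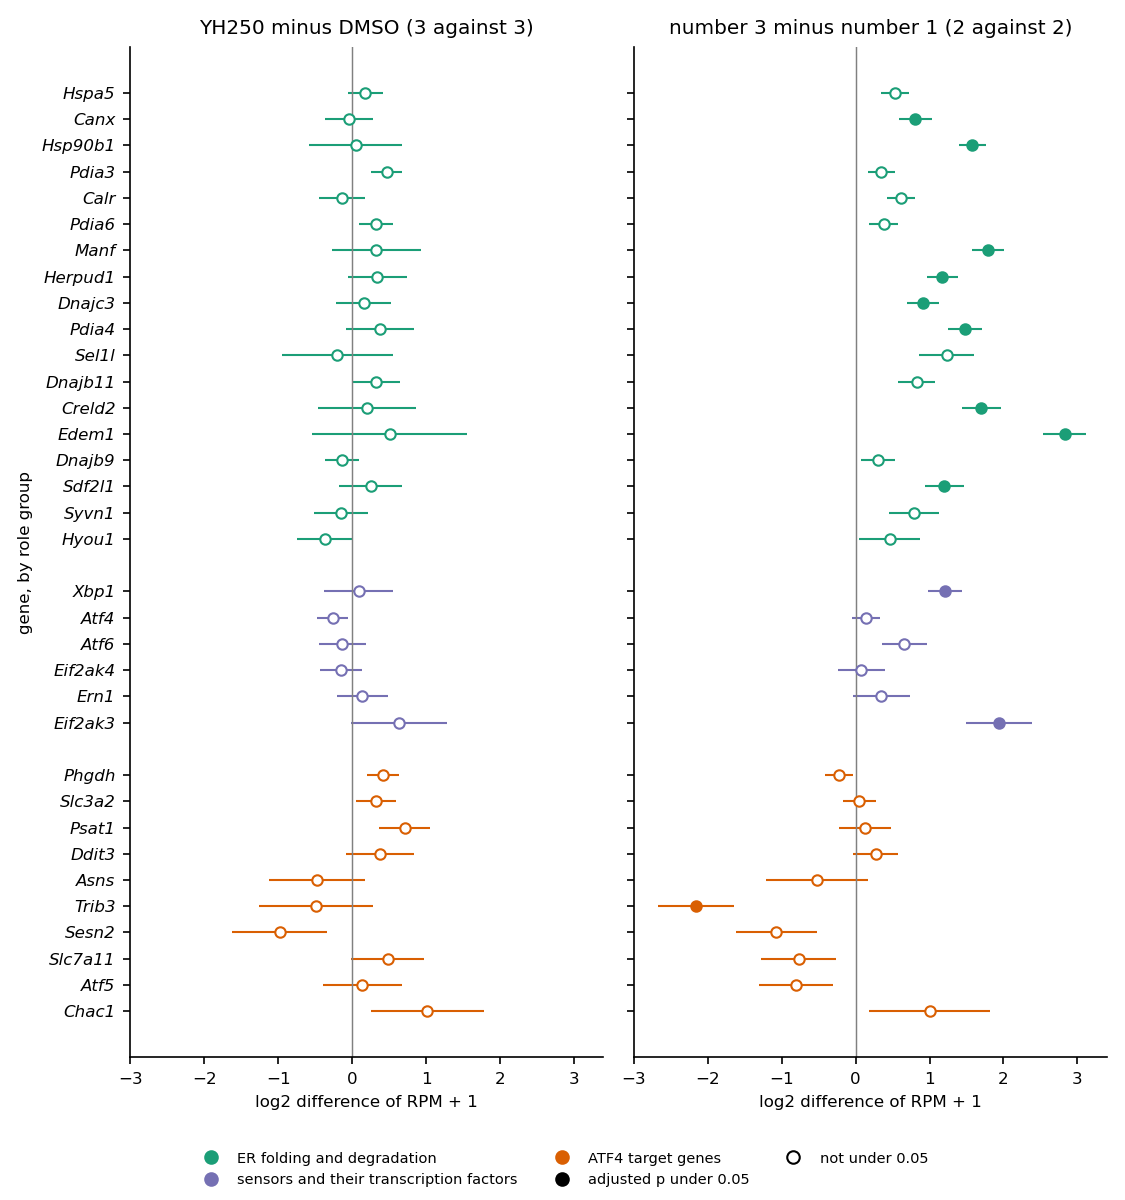
Log2 difference of RPM + 1 with its standard error for each of the 34 genes: YH250 minus DMSO on the left (3 libraries against 3) and replicate number 3 minus number 1 on the right (2 against 2, adjusted for treatment), coloured by role, filled where limma's adjusted p is under 0.05. No point is filled on the left, and 12 are filled on the right, 9 of them ER genes.

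The widest ER difference was in Edem1, a lectin that hands misfolded glycoproteins to degradation (chr6:108828641-108859356, GENCODE M21 on GRCm38). It measured 17.2, 16.0 and 100 RPM in DMSO libraries 1, 2 and 3, and 16.8, 30.4 and 160 RPM in YH250 libraries 1, 2 and 3. Both libraries numbered 3 were several times above the rest, and number 3 exceeded number 1 by 2.83 on the log2 scale (SE 0.29, adjusted p = 0.000545). Hsp90b1 (chr10:86690209-86705509) measured 208, 183 and 642 RPM in the DMSO libraries and 230, 177 and 667 RPM in the YH250 libraries. The treatments were close at each number, and number 3 exceeded number 1 by 1.58 (SE 0.18, adjusted p = 0.000923). Manf (chr9:106838312-106891979), a secreted ER stress protein that binds BiP, measured 74.6, 90.9 and 322 RPM in the DMSO libraries and 109, 133 and 305 RPM in the YH250 libraries, with number 3 above number 1 by 1.79 (SE 0.22, adjusted p = 0.00128). Exons of Hsp90b1 and Manf overlap other genes, among them Gm15344 and Gm25745 on the same strand as Hsp90b1 and Rbm15b on that of Manf. These 3 calls held without any one library.

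Degradation and folding genes were both among the ER genes that were higher in number 3 than in number 1. Beside Edem1, Herpud1, which gathers the degradation complex at the ER membrane, was higher by 1.17 on the log2 scale. Of the folding genes, Creld2 was higher by 1.70, Pdia4 by 1.48, Sdf2l1 by 1.20, Dnajc3 by 0.91 and Canx by 0.81. Sel1l and Syvn1, the adaptor and the ubiquitin ligase of the main degradation complex, had differences of 1.23 and 0.79 that did not pass (adjusted p = 0.0733 and 0.192). Hspa5 itself had a difference of 0.53 (SE 0.19, limma adjusted p = 0.112). That of Hspa5 fell to 0.18 with the same sum over genes and to 0.07 with quantile normalization. Calr, Pdia3, Pdia6, Dnajb9, Dnajb11 and Hyou1 had 0.61, 0.35, 0.38, 0.30, 0.83 and 0.46 without passing. In number 3 against number 2, Calr (0.87) and Sel1l (2.17) passed while Canx and Pdia4 did not, and the call for Calr was lost without DMSO 3 or YH250 2. The call for Canx was lost without DMSO 1 or DMSO 3, that for Herpud1 without YH250 1, and those for Dnajc3 and Sdf2l1 without any 1 of the libraries numbered 1 or 3.

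**Figure D4:**
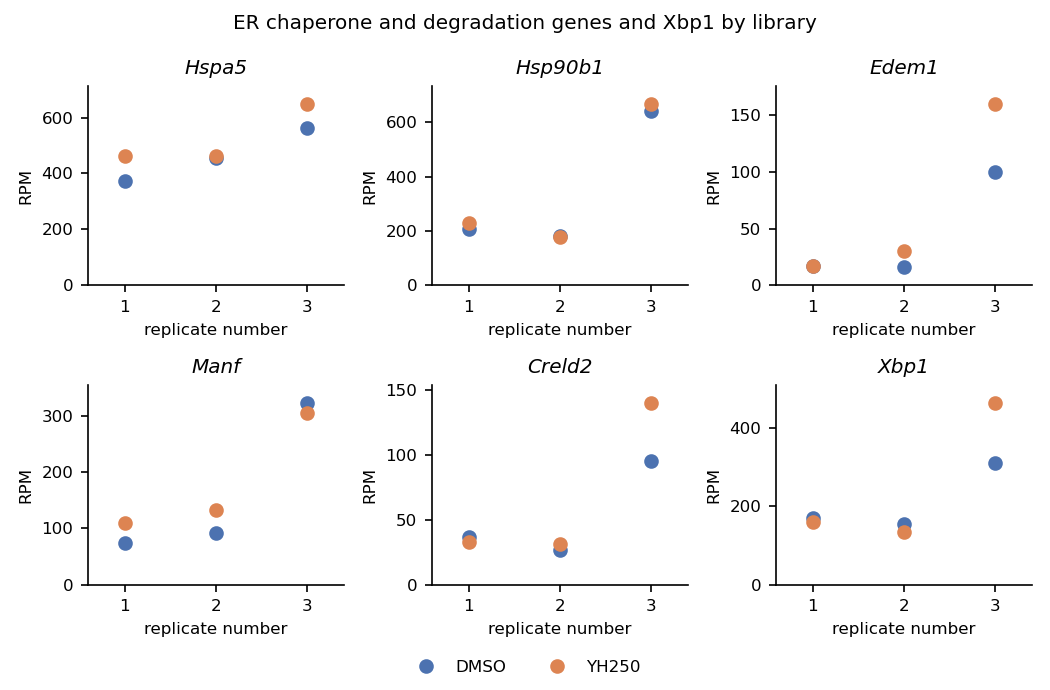
RPM on the vertical axis (from 0) against replicate number on the horizontal axis for 5 ER genes and Xbp1, 1 point per library, DMSO in blue and YH250 in orange. In each panel both points at number 3 are the highest, with Hspa5 showing the smallest relative step.

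Xbp1 (chr11:5520659-5525893) followed the ER genes, with 312 RPM in DMSO 3, 464 RPM in YH250 3 and 134 to 170 RPM in the remaining 4. Number 3 exceeded number 1 by 1.21 (SE 0.23, adjusted p = 0.0117) and number 2 by 1.39 (adjusted p = 0.00974). Eif2ak3 exceeded number 1 by 1.94 (SE 0.45, adjusted p = 0.0299), a call that was lost without DMSO 1 or DMSO 3. Atf6 and Ern1 had differences of 0.66 and 0.35 that did not pass. Atf4 and Eif2ak4 had differences of 0.14 and 0.08 (SE 0.19 and 0.32).

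The ATF4 targets had a median difference of -0.37 between numbers 3 and 1 and of 0.25 between numbers 3 and 2, with 4 and 5 of 10 above 0. Their 10 genes together measured 420, 330 and 365 RPM in the DMSO libraries and 487, 477 and 480 RPM in the YH250 libraries, with neither library numbered 3 the highest of its group. Trib3 was lower in number 3 than in number 1, at a log2 difference of -2.16 (SE 0.51, adjusted p = 0.032). That call was lost without any 1 of the 4 libraries it compares, where the difference lay between -2.72 and -1.61. Ddit3 exceeded number 2 in number 3 by 1.33 (adjusted p = 0.0347), with both libraries numbered 2 the lowest for this gene, and was lost without DMSO 3 or YH250 3. Sesn2 and Atf5 had differences of -1.07 and -0.81 between numbers 3 and 1 that did not pass.

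Other cell type markers moved with the same libraries. Igkc, which encodes an antibody light chain of B cells and, at its highest, of plasma cells, measured 83.5, 117 and 17179 RPM in the DMSO libraries and 331, 2327 and 27395 RPM in the YH250 libraries. Of the 10 plasma cell markers, 9 were highest in both libraries numbered 3, where none was at 0. In DMSO 1 and DMSO 2, 1 marker each was at 0 (Tnfrsf17 and Derl3) and 5 and 3 were under 1 RPM. Of the 10, Mzb1 and Derl3 themselves encode ER proteins. Both the plasma cell sum and the ER sum were lowest in DMSO 1 and highest in DMSO 3 and YH250 3. YH250 1 and YH250 2 had close ER sums, 2381 and 2350 RPM, and plasma cell sums of 842 and 6541 RPM. A sort for Lin- c-Kit+ cells is meant to leave out mature cells of the blood lineages, and the labels give no purity. The part of antibody-secreting cells in the higher ER genes was not tested.

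**Figure D5:**
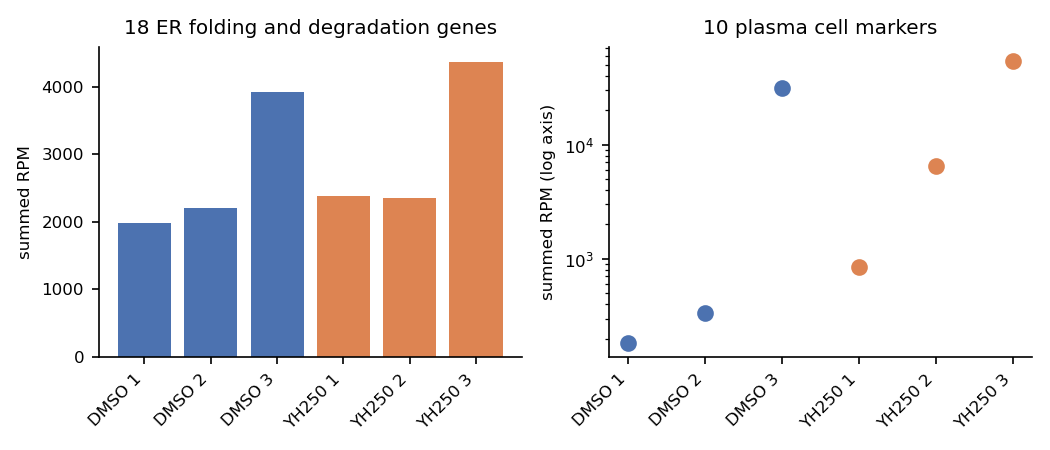
Summed RPM of the 18 ER folding and degradation genes (left, bars from 0) and of 10 plasma cell markers (right, points on a log axis) in each of the 6 libraries, DMSO in blue and YH250 in orange. DMSO 3 and YH250 3 are highest in both panels, at 3918 and 4369 RPM and at 31534 and 53886 RPM.

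Other marker lists were also highest in both libraries numbered 3. The 6 markers of multipotent and lymphoid-primed progenitors summed to 1918 and 1859 RPM there against 215 to 1044 RPM in the other 4, with 5 of 6 highest in both. The 8 B cell markers summed to 616 and 810 RPM against 64.0 to 288 RPM, all 8 highest in both, with Pax5 at 0.273 RPM or less in every library. The 7 T and NK cell markers summed to 444 and 393 RPM against 52.4 to 165 RPM, with 4 of 7 highest in both. The 8 neutrophil and monocyte markers summed to 790 and 824 RPM against 188 to 426 RPM, with 5 of 8 highest in both and S100a8 at 2.54 RPM in YH250 3, its lowest value. The 4 mast cell and basophil markers summed to 31.7 and 76.2 RPM against 0.405 to 12.6 RPM, with 3 of 4 highest in both. The remaining lists were not. The 6 erythroid markers summed to 8.04 to 139 RPM with the highest value in DMSO 2, the 4 megakaryocyte markers to 17.4 to 116 RPM with the lowest values in DMSO 3 and YH250 3, and the 6 endothelial and stromal markers to 31.5 to 80.1 RPM apart from 372 RPM in YH250 2. The part of these lists in the order of the ER genes was not tested.

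Scaling bears on these contrasts. The RPM of all genes summed to 699979 and 779144 in the libraries numbered 1 and to 959240 and 936080 in those numbered 3. When every library was rescaled to the same sum over genes, a setting added after the data had been seen, the median of all genes between numbers 3 and 1 moved from 0.04 to -0.28, and higher calls went from 65.4% to 34.3% of all calls. The ER median exceeded the median of all genes by 0.83 as deposited and by 0.79 after rescaling. Of the 18 ER genes, 16 still had a positive difference, with Dnajb9 and Pdia3 below 0, and 6 remained called (Hsp90b1, Creld2, Pdia4, Edem1, Herpud1 and Manf). Xbp1 and Eif2ak3 lost the call at 0.85 and 1.62 (limma adjusted p = 0.0595 and 0.0521), and Atf4 turned to -0.21. With quantile normalization the ER median exceeded the median of all genes by 0.77. There 16 ER genes had a positive difference, with Pdia3 and Pdia6 below 0, and 7 were called. Canx and Dnajc3 lost the call, as did Xbp1 at 0.79 (limma adjusted p = 0.0662). Calls were also fewer where genes of low mean were kept or where limma's trend and robust options were left out, with 3 of 34 called in either setting, Edem1, Hsp90b1 and Manf among them.

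The 8 ER genes with an ERSE did not stand above those without one in this contrast. Their differences between numbers 3 and 1 ran from 0.38 to 1.70 with a median of 0.80. The 8 with a promoter entry and no ERSE ran from 0.30 to 2.83 with a median of 1.19, Edem1 among them. These 8 include Herpud1 and Dnajb11, which hold the related ERSE-II, so the set is not free of stress elements. Manf and Hyou1, which have no promoter entry, are in neither set. For YH250 minus DMSO the medians were 0.11 with and 0.34 without the ERSE. A relation between the ERSE and these differences was not tested.

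Other genes of the pathways were listed by function. The list of 43 further ER folding and degradation genes had 29 above 0 for YH250 minus DMSO, a median log2 difference of 0.16 and 0 passing limma's test (3 higher and 0 lower at an unadjusted p under 0.05, where 0.934% and 0.765% of all genes were). With the replicate block, 0 passed, and 10 were higher and 0 lower at an unadjusted p under 0.05, where 4.46% and 2.99% of all genes were. Its smallest p-values were in Faf2, which helps to pull proteins from the ER membrane, with means of 24.9 ± 3.60 RPM over the DMSO libraries and 44.7 ± 9.03 RPM over the YH250 libraries (SD, n = 3 each; log2 difference 0.80, limma adjusted p = 0.999), and Sec61a1, the translocation channel, at 65.0 ± 8.25 and 97.3 ± 8.72 RPM (log2 difference 0.58, limma adjusted p = 0.999). In number 3 against number 1, 8 of the 43 were higher and 0 lower at an adjusted p under 0.05, beside the shares of 5.6% and 2.96% over all genes, and 3 were lower at an unadjusted p under 0.05 (9.6% of all genes). The 8 were the disulfide enzymes Txndc5 (2.08 on the log2 scale) and Ero1lb (1.90), Serp1 (1.44), the degradation factors Selenos (1.28) and Ube2j1 (0.91), the proline isomerase Fkbp2 (1.22), and the translocation genes Sec61b (1.1) and Ssr1 (0.88).

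The 24 genes of eIF2 and of partners of the sensors had 13 above 0 for YH250 minus DMSO, a median of 0.02 and 0 passing limma's test. At an unadjusted p under 0.05, 0 were higher and 1 lower, with the replicate block or without. Of all genes 0.934% were higher and 0.765% lower without the block, and 4.46% and 2.99% with it. Mbtps2, the protease that makes the final cut in ATF6, averaged 31.0 ± 9.27 RPM over the DMSO libraries and 13.2 ± 4.25 RPM over the YH250 libraries (SD, n = 3 each; log2 difference -1.19, limma adjusted p = 0.999). Eif2ak1, the heme-regulated eIF2 kinase, stood at 26.1 ± 2.36 and 36.1 ± 6.77 RPM (log2 difference 0.44, limma adjusted p = 0.999). In number 3 against number 1, 1 of the 24 was higher and 1 lower at an adjusted p under 0.05, beside 5.6% and 2.96% of all genes. Eif2s1, a subunit of eIF2, was higher at a log2 difference of 0.88 (limma adjusted p = 0.0422). Ppp1r15a, which directs removal of the phosphate from eIF2, was lower at -1.58 (limma adjusted p = 0.00114). Of 34 further ATF4 and amino acid genes 32 were tested, with 21 above 0, a median of 0.19 and 0 passing limma's test. At an unadjusted p under 0.05, 0 were higher and 1 lower, or 1 and 2 with the replicate block, beside the same shares of all genes. Vldlr, a lipoprotein receptor, averaged 44.7 ± 23.3 RPM over the DMSO libraries and 18.3 ± 11.9 RPM over the YH250 libraries (log2 difference -1.26), and Slc1a5, a glutamine carrier, at 92.2 ± 11.3 and 67.4 ± 1.15 RPM (log2 difference -0.44), both at a limma adjusted p of 0.999. In number 3 against number 1, 2 of the 32 were lower at an adjusted p under 0.05, where 2.96% of all genes were. They were the stress factors Nupr1 and Cebpb, at log2 differences of -3.05 and -1.14 (limma adjusted p = 0.00331 and 0.0141). Of this list 0 were higher, where 5.6% of all genes were, and 4 were higher at an unadjusted p under 0.05 (14.8% of all genes).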

How the data were processed

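Poly(A) RNA of sorted marrow cells was measured in 3 DMSO and 3 YH250 libraries. Per the labels' protocols, amplified full-length cDNA (SMARTer kit) was fragmented and read from one end. CASAVA 1.8.2, TopHat2 2.0.8, Partek and the build mm10 appear in the submitters' processing notes, with no role stated. The authors deposited 1 normalized signal per gene and library, with an unstated unit. Its minimum is 1, and the worth of 1 read was taken as the most common smallest step of each library. It was therefore read as RPM plus an offset of 1, which was subtracted here. Of values worth at most 20 reads, only 60.0% to 67.5% came within 0.1 of a whole number of reads, so no count model was used.

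Symbols were found for 40254 of 41128 identifiers (GENCODE M21), and exons were merged from its basic transcripts. The 13597 genes averaging 1 RPM or more were tested on log2(RPM + 1) with limma 3.58.1 in R 4.3.3 (eBayes with trend and robust, Benjamini-Hochberg over all tested genes at 0.05), a scale that understates differences of low genes. The test was also run on simulated libraries with changes set beforehand, and the outcome of that run is not given here. The number contrasts take treatment as a covariate. Libraries of the same number deviated together from their group means (r = 0.55, 0.26 and 0.70, all above 0.1). The numbers were therefore taken as pairs and a blocked fit was run. Between different numbers, r was also above 0.1 for DMSO 2 with YH250 1 (0.14) and DMSO 1 with YH250 2 (0.11). It was -0.55 to -0.26 for the rest, each with a library numbered 3. The text gives all library values for 6 preset genes and, per role group, the 4 smallest p-values for YH250 and the 3 smallest for number 3 against 1. Of each further pathway list it gives the 2 genes of smallest p. Members, lists and contrasts were chosen with earlier results of these data known. Alternatives covered pseudocounts, minimum means, scalings, array weights, a replicate block and left-out libraries. Protein ends were not analysed here.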

Additional observations from a re-analysis of the deposited data

How the results depend on the processing

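For YH250 minus DMSO, 0 genes and 0 of the 34 passed in each of the 19 alternatives run. The role medians were small and moved. Leaving out 1 library gave -0.20 to 0.43 for the ER genes, -0.24 to 0.21 for sensors and factors, and 0.19 to 0.45 for ATF4 targets. The sensors' median was -0.08 with quantile normalization, -0.11 with gene-total scaling, and 0.13, -0.13 and -0.10 without both libraries numbered 1, 2 and 3. The ATF4 targets' median was 0.28 and 0.26 under those scalings and 0.27 without number 2. The replicate block left all medians as they were and passed 0 genes. Reversed signs were all in genes that passed in neither setting: Xbp1 (-0.02 quantile, -0.01 gene-total, -0.15 without number 3, -0.46 to 0.43 over single left-out libraries), Asns (0.58 without number 2, -0.96 to 0.33 over single left-out libraries), Ern1 (-0.23 and -0.12 to 0.38 likewise) and Trib3 (-1.08 to 0.33 over single left-out libraries, 0.33 without YH250 3). By gene-total scaling, 1 gene lay above and 2 below without overlap. YH250 was higher at all 3 numbers in 6 of the 34 by quantile normalization and in 3 by gene-total scaling. The shares of all genes with these orders were not counted under these scalings.

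For number 3 against 1, 12 of the 34 and 1164 genes passed. The counts were 3 and 180 with no minimum mean, and 3 and 526 without trend and robust. They were 9 and 1303 with quantile normalization, 7 and 1372 with gene-total scaling, and 16 and 2641 with array weights. With array weights Hspa5 also passed (limma adjusted p = 0.0448), while its difference was 0.07 with quantile normalization and 0.18 with gene-total scaling. Single left-out libraries gave 7 to 15 of the 34 and 417 to 3010 genes. For number 3 against 2 (11 and 858), the counts were 1 and 42 with no minimum mean, 1 and 154 without trend and robust, 7 of the 34 with gene-total scaling, and 7 to 13 and 250 to 3137 with a library left out. For number 2 against 1 (0 and 27), 0 genes passed with no minimum mean or without trend and robust, 75 with a minimum of 5 RPM and 46 with quantile normalization. With a library left out, 0 to 5 of the 34 and 39 to 1764 genes passed, the highest without DMSO 2. Atf4 turned to -0.19 and -0.21 between numbers 3 and 1 under quantile and gene-total scaling, Ddit3 to -0.08 under the latter, and Asns ranged from -1.43 to 0.39 with a library left out, at 0.39 without DMSO 3 and 0.15 without YH250 1. With a library left out, the number with 1 library left is assumed to vary like the others. ERSE-II was in 1 gene in the 250 bases before the start. The cause of these shifts was not tested. Gene-total scaling and left-out libraries in the number contrasts were added after the data had been seen.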
